A study of Mus musculus with 6 samples.

Results

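The 79 genes described here were the histone genes of a deposited table of gene expression in Ba/F3 cells. They comprised 70 replication-dependent genes, found as every symbol that starts with Hist1h, Hist2h, Hist3h or Hist4h, and 9 replacement genes named singly: H2afz, H2afx, H2afy, H2afv, H2afj, H3f3a, H3f3b, H1f0 and H1fx. These were 79 of 57010 gene IDs in the table, of which 52081 (91.4%) had a symbol in the GENCODE M21 annotation, and 3 of the replication-dependent genes were annotated as pseudogenes. Averaged over all 6 libraries, 1 TPM was reached by 14 of the 79 genes, 6 of them replication-dependent and 8 of them replacement genes. TPM, a relative transcript abundance, is a level scaled by gene length and by the library's own total. The genes were chosen by symbol, but the group was taken up because Hist1h2bg and Hist1h1c were known to be among the large falls in the contrast described here. The differences of the members between the 2 groups are therefore given as a description of these 6 libraries, with no p-value for any member. Counts of members past the threshold of the fit over all genes stand beside the same share of all genes and support nothing.

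Ba/F3 is a mouse blood progenitor cell line that normally needs interleukin-3 to grow and is widely used to study activated kinases. The labels give 3 libraries of Ba/F3 cells with an empty vector (genotype WT) and 3 of cells overexpressing TPR-FGFR1, which joins a nuclear pore protein to the FGFR1 receptor tyrosine kinase. The fusion cells were made with lentivirus and kept in puromycin (5 µg/ml) for 6 days, and the labels do not say how the empty vector cells were selected. They also do not state the interleukin-3 supply, whether the cells were a pool or 1 clone, or whether replicates were separate cultures, so the spread between libraries may be technical.

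Histones are the proteins around which DNA is wound. The core histones H2A, H2B, H3 and H4 form the nucleosome, and the linker histone H1 binds where DNA enters and leaves it. Replication-dependent histone genes lie in clusters, lack introns and are transcribed mainly in S phase, when new DNA has to be packed. Their mRNAs are the main class in animal cells that end in a conserved stem-loop in place of a poly(A) tail. The stem-loop is bound by the protein SLBP, and the 3′ end is cut next to it with the help of the U7 small nuclear RNA. Replacement histone genes lie outside the clusters, are transcribed throughout the cell cycle and give polyadenylated mRNAs. The libraries were made with an mRNA kit, a type that captures RNA by its poly(A) tail. A replication-dependent gene was therefore measured mainly through whatever polyadenylated or carried-over RNA it gave. Less histone mRNA and a smaller polyadenylated part of it cannot be told apart in these libraries.

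Between 12679 and 12839 genes reached 1 TPM in a library, and mitochondrially encoded genes held 11.4% to 15.4% of TPM. The depth is unknown, because TPM keeps no read number. Fgfr1 was listed at 0.02 to 0.05 TPM with the empty vector and at 0.58 to 1.26 TPM with TPR-FGFR1. Of 10 B lineage markers, 9 were under 1 TPM in every library although the cells are labelled as B lymphocytes, with Rag1 at 0 and Cd79b at 4.06 to 7.14 TPM. Myeloid markers summed to 53.8 to 60.2 TPM with the empty vector and 47.8 to 57.8 TPM with TPR-FGFR1, erythroid markers to 112 to 200 and 67.5 to 217 TPM, and T lineage and mast cell markers to at most 1.25 TPM in a library, so each of these ranges overlapped. The erythroid sums were mostly Hba-a1, at means of 107 TPM with the empty vector and 86.2 TPM with TPR-FGFR1. Single markers called lower by limma were Epor (log2 difference −1.06, adjusted p = 0.0426), the erythropoietin receptor, and Lyz2 (−0.59, adjusted p = 0.0329), a lysozyme of myeloid cells. Groups were compared over all 12862 genes that averaged 1 TPM or more, by limma on log2(TPM + 1) with Benjamini-Hochberg adjustment, and the threshold for a call was an adjusted p of 0.05. By that rule 10.0% of tested genes were called lower and 10.2% higher with TPR-FGFR1. For 20.8% of tested genes all 3 TPR-FGFR1 libraries lay below all 3 empty vector libraries, and for 22.6% they all lay above. Differences moved with GC content: the median log2 difference was 0.19 in the lowest 2509 of 12541 genes by GC and −0.35 in the highest 2507. Replicate 3 of TPR-FGFR1 lacked most of that trend, at −0.07 in the latter set against −0.42 and −0.56 in replicates 1 and 2. How much of any member's difference belongs to this trend was not tested. For single genes, values with the trend in GC content and length removed are given where they differ by more than 1.5 times. For Epor that value was −0.62. Its TPR-FGFR1 replicate 3 (9.69 TPM) lay apart from replicates 1 and 2 (4.16 and 4.42 TPM).

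Summed over all 70 genes, the listed TPM of replication-dependent histone genes was low in both groups and lower with TPR-FGFR1. The sum was 64.1, 49.0 and 45.1 TPM in the 3 empty vector libraries and 11.1, 10.6 and 13.4 TPM in the 3 TPR-FGFR1 libraries, so the groups did not overlap. The means were 52.7 ± 10.1 TPM (SD, n = 3) and 11.7 ± 1.48 TPM (SD, n = 3), a level 4.51-fold higher with the empty vector (log2 ratio −2.17 for TPR-FGFR1 over empty vector). Without TPR-FGFR1 replicate 3 the difference in summed TPM was 4.86-fold. Hist1h2bg and Hist1h1c held much of the empty vector sum. With both left out the sums were 30.0, 23.4 and 22.3 TPM against 9.75, 9.22 and 10.3 TPM, which was 2.58-fold higher with the empty vector.

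The 9 replacement genes summed to far more, at 1939, 1826 and 1862 TPM with the empty vector and 1485, 1453 and 1457 TPM with TPR-FGFR1. Their sum also did not overlap between the groups, but it differed by only 1.28-fold (1876 ± 57.6 against 1465 ± 17.5 TPM, SD, n = 3). The log2 ratio of the replacement sum was −0.36, against −2.17 for the replication-dependent sum. As a result, replication-dependent genes held 2.73 ± 0.43% of all histone TPM with the empty vector (SD, n = 3) and 0.792 ± 0.102% with TPR-FGFR1 (SD, n = 3), again with no overlap.

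**Figure D1:**
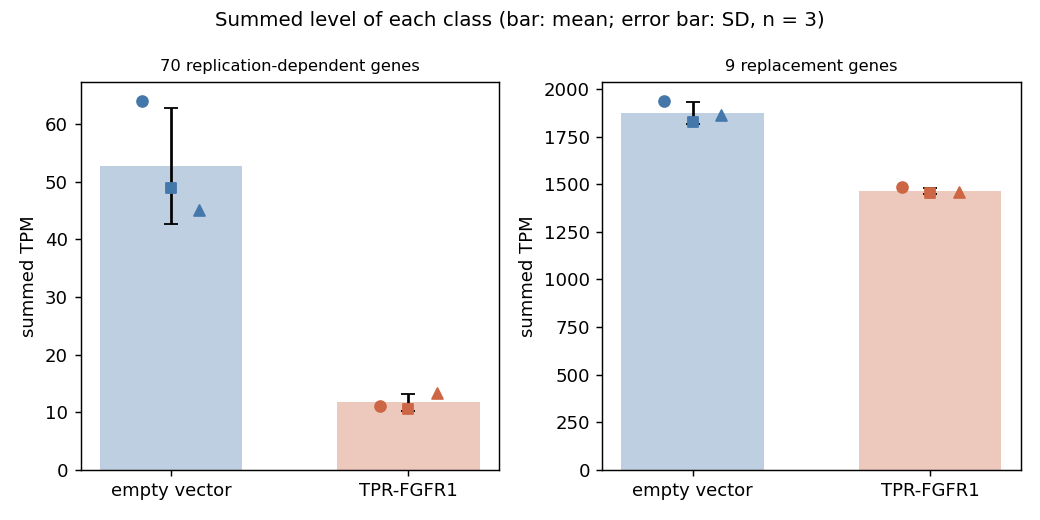
Summed TPM of the 70 replication-dependent (left) and 9 replacement (right) histone genes. Points are libraries, bars are group means and error bars are SD (n = 3). The replication-dependent sum lay at 45.1 to 64.1 TPM with the empty vector and 10.6 to 13.4 TPM with TPR-FGFR1, while the replacement sum, on an axis of its own, lay at 1826 to 1939 and 1453 to 1485 TPM.

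Of the 70 replication-dependent genes, 29 were listed at 0 in every library and 35 were above 0 but had a mean under 1 TPM. Among those 35 genes the mean was higher with the empty vector for 30 and higher with TPR-FGFR1 for 5. The 3 TPR-FGFR1 libraries lay wholly below the empty vector libraries for 10 of them and wholly above for 0. No such share was computed over all genes under 1 TPM, so these counts are description only. In the fit without a filter, 12722 of all 26204 genes had a log2 difference below 0. Taken as a sum, all replication-dependent genes under the 1 TPM line gave 17.6, 11.7 and 11.6 TPM with the empty vector and 2.52, 2.46 and 5.15 TPM with TPR-FGFR1. The number of replication-dependent genes above 0 was 29, 29 and 28 in the empty vector libraries and 22, 17 and 21 in the TPR-FGFR1 libraries. Genes of 1 TPM or more numbered 9, 10 and 7 against 3, 3 and 3. Among the 6 genes that reached a mean of 1 TPM, 5 had groups that did not overlap, all lower with TPR-FGFR1 (20.8% of all tested genes), and 4 passed the threshold of the fit as lower (10.0% of all tested genes). By limma 0 of the 6 passed it as higher (10.2% of all tested genes). At an unadjusted p under 0.05 also 0 were higher, beside 2558 of all 12862 tested genes. Of the 6, however, Hist1h2bg, Hist1h2br and Hist3h2a averaged under 1 TPM with TPR-FGFR1 and entered the fit only through the empty vector libraries. Those counts and the median log2 difference of the 6 genes (−1.07, against 0.02 for all tested genes) therefore support nothing by themselves.

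The genes next to the 1 TPM line were Hist3h2a (mean of 1.23 TPM over the 6 libraries), Hist1h2be (1.32 TPM) and Hist1h2br (1.41 TPM) just inside it. Just outside lay Hist1h4i (0.893 TPM), Hist1h4k (0.782 TPM) and Hist1h1b (0.700 TPM).

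Linker histone H1 held the most abundant replication-dependent gene, Hist1h1c (ENSMUSG00000036181, chromosome 13), which encodes the widely expressed subtype H1.2. Hist1h1c stood at 15.9, 15.2 and 14.2 TPM with the empty vector and at 1.27, 1.42 and 2.33 TPM with TPR-FGFR1. The lowest empty vector library was several times the highest TPR-FGFR1 library, which was replicate 3. Its means were 15.1 ± 0.856 and 1.67 ± 0.574 TPM (SD, n = 3), and its log2 difference was −2.61 (SE 0.161) on the log2(TPM + 1) scale. Over the other 5 genes of the family, Hist1h1b was listed at 1.91, 1.26 and 0.55 TPM against 0, 0.12 and 0.36 TPM. All 6 H1 genes summed to 19.1, 17.4 and 16.4 TPM with the empty vector and 1.54, 2.19 and 3.22 TPM with TPR-FGFR1, a 7.61-fold difference in summed TPM. Because the replacement linker gene H1f0 was far more abundant, replication-dependent genes held 7.51 ± 0.487% of H1 TPM with the empty vector and 1.43 ± 0.456% with TPR-FGFR1 (SD, n = 3).

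Of the core histones, H2B had the most replication-dependent RNA, 26.0 ± 5.14 TPM summed over 19 genes with the empty vector and 6.93 ± 0.462 TPM with TPR-FGFR1 (SD, n = 3). Hist1h2bg (ENSMUSG00000058385, chromosome 13) had the largest log2 difference of all members. It was listed at 18.2, 10.4 and 8.56 TPM with the empty vector and at 0.04, 0 and 0.73 TPM with TPR-FGFR1. Its empty vector values spread over more than those of Hist1h1c, yet every one lay above the TPR-FGFR1 range. The log2 difference of Hist1h2bg was −3.40 (SE 0.318), and it ran from −1.69 to −5.71 over the alternative settings, the extremes of a pseudocount of 5 and of 0.1 TPM. Hist1h2br (ENSMUSG00000069303, chromosome 13) stood at 2.78, 2.95 and 2.02 TPM against 0.41, 0.31 and 0 TPM, a log2 difference of −1.54 (SE 0.205). Hist2h2be (ENSMUSG00000068854), in the chromosome 3 cluster, differed less. It stood at 6.46, 5.85 and 6.49 TPM with the empty vector and 4.14, 4.03 and 3.23 TPM with TPR-FGFR1, without overlap, for a log2 difference of −0.60 (SE 0.119). Of the genes classed as replication-dependent by symbol, Hist2h2be was the most abundant left in the TPR-FGFR1 libraries. Its annotated transcript had no stem-loop by the search below and held the polyadenylation signal AATAAA in its last 50 bases.

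Hist1h2be (ENSMUSG00000047246, chromosome 13) was not lower with TPR-FGFR1. It stood at 0.93, 1.47 and 0.79 TPM with the empty vector and at 1.80, 1.71 and 1.19 TPM with TPR-FGFR1. The ranges overlapped, since empty vector replicate 2 lay above TPR-FGFR1 replicate 3. Its log2 difference was 0.32 (SE 0.194) and 0.21 with the GC and length trend removed, and it did not pass the threshold. Hist1h2be was the 1 gene of the 6 fitted whose value was higher with TPR-FGFR1.

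Listed TPM was low in both groups for replication-dependent H2A, H3 and H4 genes. How much of this RNA the cells held is not known, because RNA without a poly(A) tail was mostly not captured. Reads of near-identical copies, described below, may also be missing from these values. The most abundant H2A gene was Hist3h2a (ENSMUSG00000078851, chromosome 11), at 2.24, 1.41 and 1.37 TPM with the empty vector and 0.88, 0.71 and 0.75 TPM with TPR-FGFR1. Its groups did not overlap, but its log2 difference of −0.57 (SE 0.183) did not pass the threshold of the fit. With the GC and length trend removed the Hist3h2a difference was −0.68 and passed. Of the 20 H2A genes, 14 were listed at 0 in every library, the largest such number in a family. Hist2h3c1 (ENSMUSG00000093769, chromosome 3), the most abundant H3 gene, was at 0.89, 0.70 and 0.79 TPM against 0.13, 0.14 and 0.10 TPM. Those low values were close together within each group. Hist1h4i (ENSMUSG00000060639), the most abundant H4 gene over all 6 libraries, was at 1.56, 1.06 and 0.80 TPM against 0.59, 0.49 and 0.86 TPM, so TPR-FGFR1 replicate 3 lay above empty vector replicate 3. Hist1h4k (ENSMUSG00000064288) was at 2.65, 1.04 and 1.00 TPM with the empty vector and listed at 0 in all 3 TPR-FGFR1 libraries. The difference in summed TPM was 2.59-fold for the 20 H2A genes, 9.48-fold for the 12 H3 genes and 3.8-fold for the 13 H4 genes, each without overlap and each higher with the empty vector. The H3 figure rested on sums of 2.31, 1.52 and 1.67 TPM against 0.34, 0.14 and 0.10 TPM.

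**Figure D2:**
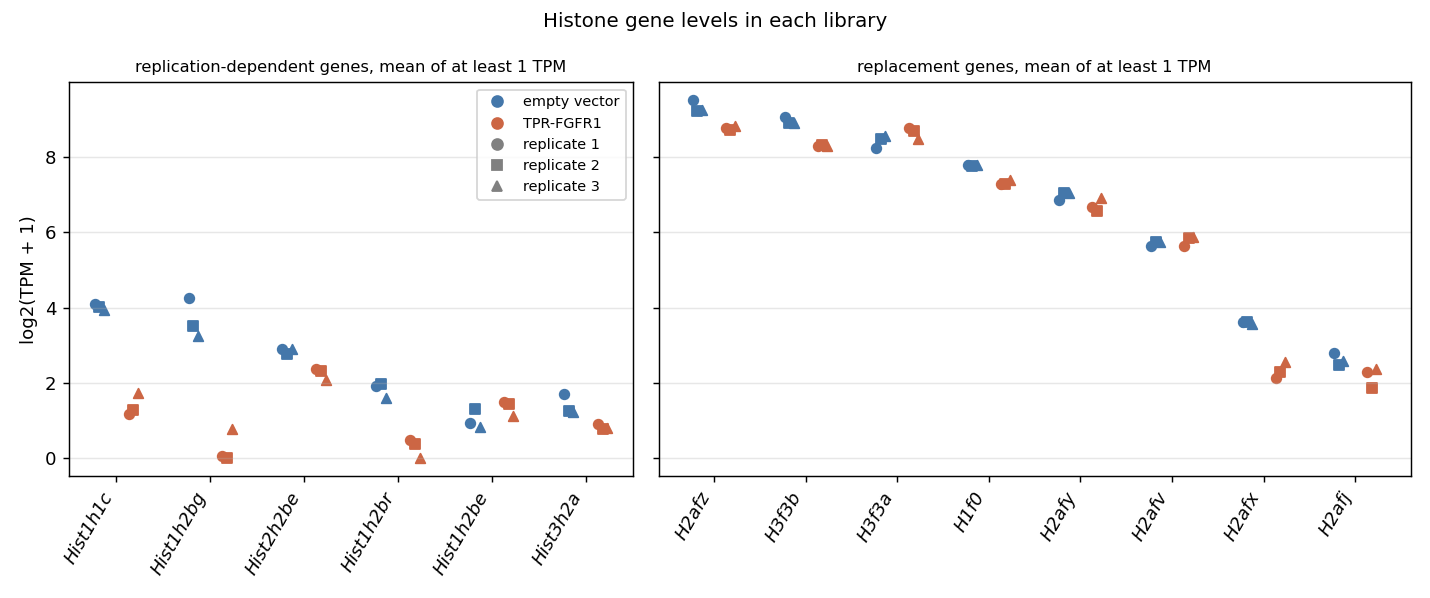
Level of each histone gene that averaged 1 TPM or more, as log2(TPM + 1), in each library (blue, empty vector; orange, TPR-FGFR1; the marker shape gives the replicate number). Hist1h1c and Hist1h2bg show the widest gaps between the groups, H3f3a and Hist1h2be overlap with the higher values in TPR-FGFR1, and H2afv overlaps with little difference.

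By cluster, the 56 replication-dependent genes of chromosome 13, where the large Hist1 cluster lies, had summed group means of 42.9 TPM with the empty vector and 6.74 TPM with TPR-FGFR1. The 10 genes of chromosome 3 summed to 7.89 and 4.08 TPM, and the 3 genes of chromosome 11 to 1.81 and 0.78 TPM. The single gene of chromosome 6, Hist4h4, averaged 0.0833 and 0.0933 TPM. The genes of chromosome 13 thus held most of the replication-dependent RNA and most of the gap. Much of both was Hist1h1c (15.1 and 1.67 TPM) and Hist1h2bg (12.4 and 0.257 TPM), for which the group was taken up.

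Several of these genes have near-identical copies, which limits how surely a read can be given to one of them. A stretch of at least 100 bases identical to another member was present in 60 of the 70 replication-dependent genes and in 1 of the 9 replacement genes (H2afx, 8.45% of its transcript). Such stretches covered 90.9% of the Hist1h2br transcript, 53.7% of Hist1h2bg, 21.5% of Hist1h2be and 11.1% of Hist1h1c, and none of Hist2h2be or Hist3h2a. The values of Hist1h2br and Hist1h2bg are therefore uncertain as values of single genes, while the H2B sum is less affected by reads moved between copies.

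The 3′ ends of the members were read from the GENCODE M21 transcripts to see which carry the stem-loop and how much annotated transcript follows it. The pattern searched on the sense strand was GGNNNTTNTNANNNCC, 16 bases with the outer 6 on either side pairing fully and a loop of 4. It was found in 46 replication-dependent genes and in H2afx, and in 70 of 21829 protein-coding genes in all (0.321%), 47 of them members. The stem-loops of the most abundant gene of each family, of Hist1h2be and of H2afx are shown with 5 bases on either side, and capitals mark the stem-loop:
Hist1h1c: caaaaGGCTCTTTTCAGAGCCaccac
Hist1h2bg: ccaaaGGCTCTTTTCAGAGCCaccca
Hist1h2be: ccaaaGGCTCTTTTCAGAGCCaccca
Hist3h2a: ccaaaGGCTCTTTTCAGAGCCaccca
Hist2h3c1: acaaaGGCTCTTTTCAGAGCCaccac
Hist1h4i: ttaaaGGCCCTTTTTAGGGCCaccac
H2afx: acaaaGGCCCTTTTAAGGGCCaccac

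The same 16 bases, opening with GGCTCT, stood in the H1, H2A, H2B and H3 genes shown and in 26 members in all. The H4 gene shown and H2afx opened with GGCCCT, and the most frequent form among H4 genes, also opening so, stood in 7 of them. Hist1h2bg, lower with TPR-FGFR1, and Hist1h2be, which was not lower, had the same 26 bases here. Hist2h2be and Hist1h2br had no match in their annotated transcripts, which for 24 replication-dependent genes end without one. That says only that the letters were not in those transcripts.

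More genes were above 0 where more than 100 bases were annotated beyond the stem-loop. Of 23 replication-dependent genes with at most 100 bases after it, as a transcript cut near the stem-loop would have, 8 were above 0 in any library and 0 reached a mean of 1 TPM. Their highest empty vector mean was 0.54 TPM. Of 23 genes with more than 100 bases after it, 19 were above 0 and 4 reached a mean of 1 TPM: Hist1h1c (840 bases after it), Hist3h2a (1643), Hist1h2bg (155) and Hist1h2be (1861). The first set summed to a mean of 1.5 TPM with the empty vector and the second to 35.8 TPM. The polyadenylation signal AATAAA stood in the last 50 bases of an annotated transcript in 15 replication-dependent genes, of which 13 were above 0 and 5 reached a mean of 1 TPM. Of the 55 without it, 28 were above 0 and 1, Hist1h2bg, reached a mean of 1 TPM. The signal stood there in 8 of 9 replacement genes and in 69.7% of protein-coding genes. These counts describe annotated ends, not ends measured in these libraries. Genes with at most 100 bases after the stem-loop also had shorter transcripts, 391 to 630 bases against 539 to 7425 bases. The shared stretches described above differ between genes as well. The parts of transcript length, GC content and read assignment in these counts were not tested.

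**Figure D3:**
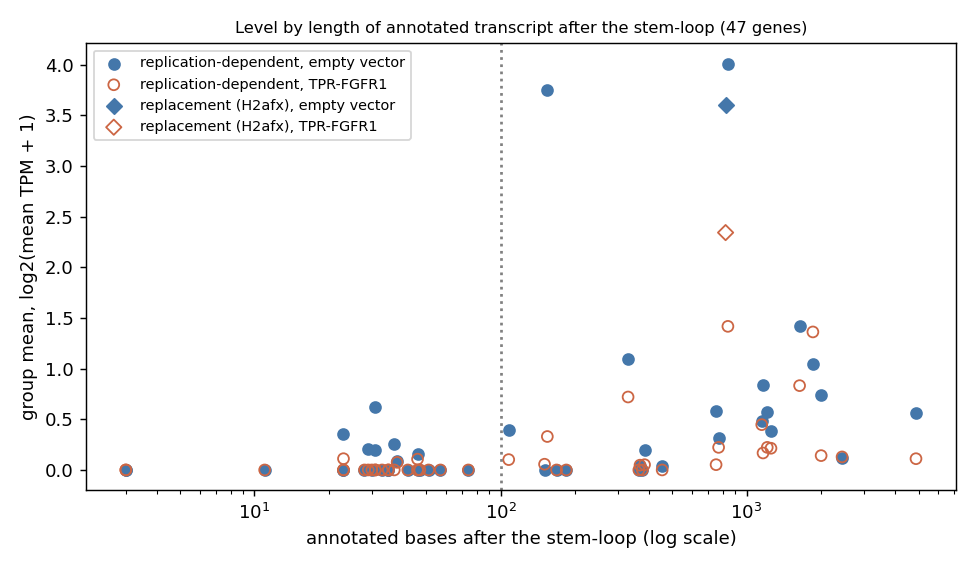
Group mean level, as log2(mean TPM + 1), against the annotated bases that follow the stem-loop (log scale) for the 46 replication-dependent genes with a stem-loop and H2afx. Filled blue symbols are empty vector means and open orange symbols TPR-FGFR1 means, the dotted line marks 100 bases, and no gene left of it had a mean above 0.54 TPM in the empty vector group.

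The bases upstream of the transcription start were taken from RefSeq promoters on GRCm38.p6, in which 69 of the 79 members were matched by symbol or by a single older name. The 3 motifs searched on both strands in the 250 bases upstream were the octamer ATTTGCAT, bound by OCT1 (gene Pou2f1) in H2B promoters, the CCAAT box, and TATAAA. The octamer occurred in 13 of 61 replication-dependent promoters. These were 7 of 17 of H2A genes and 6 of 16 of H2B genes, and none of the H1, H3 and H4 promoters. Of all 32851 RefSeq promoters 1.6% held it. Windows of neighbouring H2A and H2B genes can overlap. Those of Hist1h2bg and Hist1h2ae did, as did those of Hist1h2bk and Hist1h2ah and those of Hist1h2ba and Hist1h2aa. In these pairs the same octamer site was counted for both genes. CCAAT occurred in 50 of the 61 promoters (33.8% of all promoters) and TATAAA in 29 of 61 (12.4% of all). The upstream bases of Hist1h2bg and Hist1h1c, which had the widest gaps between the groups, and of Hist1h2be, whose groups overlapped, are shown with these motifs in capitals. They are Hist1h2bg at chr13:23571150-23571399 (plus strand), Hist1h2be at chr13:23621095-23621344 (minus strand, from the first of 2 starts listed) and Hist1h1c at chr13:23738557-23738806 (plus strand):
Hist1h2bg: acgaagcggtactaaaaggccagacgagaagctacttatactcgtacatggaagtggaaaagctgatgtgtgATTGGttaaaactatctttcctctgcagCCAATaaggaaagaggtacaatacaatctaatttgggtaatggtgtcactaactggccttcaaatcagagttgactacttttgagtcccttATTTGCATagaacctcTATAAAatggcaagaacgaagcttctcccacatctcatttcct
Hist1h2be: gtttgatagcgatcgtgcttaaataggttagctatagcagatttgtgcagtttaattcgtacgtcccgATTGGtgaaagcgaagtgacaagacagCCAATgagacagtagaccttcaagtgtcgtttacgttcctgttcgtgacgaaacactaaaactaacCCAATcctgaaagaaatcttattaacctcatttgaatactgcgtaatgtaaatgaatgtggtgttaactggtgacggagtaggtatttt
Hist1h1c: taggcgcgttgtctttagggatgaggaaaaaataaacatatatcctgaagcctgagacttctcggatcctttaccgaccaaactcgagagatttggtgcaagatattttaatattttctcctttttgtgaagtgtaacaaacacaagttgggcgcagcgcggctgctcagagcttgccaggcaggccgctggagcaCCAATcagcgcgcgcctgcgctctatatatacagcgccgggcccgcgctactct

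Hist1h2bg had 1 octamer, 2 CCAAT boxes and 1 TATAAA in this window. The Hist1h2bg window overlaps that of Hist1h2ae, which was listed at 0 in each empty vector library and at 0.12, 0 and 0 TPM with TPR-FGFR1. Hist1h2be had 3 CCAAT boxes and neither of the other motifs from the start listed first, and Hist1h1c had 1 CCAAT box. A match is a run of letters, and no binding was measured.

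Among the replacement genes, the most abundant was H2afz (ENSMUSG00000037894, chromosome 3), which encodes H2A.Z, a variant placed at promoters and regulatory sites. H2afz stood at 719, 590 and 602 TPM with the empty vector and at 434, 418 and 447 TPM with TPR-FGFR1, and every TPR-FGFR1 library was below every empty vector library. Its means were 637 ± 71.3 and 433 ± 14.4 TPM (SD, n = 3) and its log2 difference was −0.55 (SE 0.0979). The second H2A.Z gene, H2afv (ENSMUSG00000041126), encodes a closely related H2A.Z protein and behaved differently. H2afv was at 48.4, 52.5 and 51.9 TPM against 48.9, 56.3 and 57.1 TPM, overlapping, with a log2 difference of 0.08 (SE 0.0873). That sign turned, to −0.01, with the GC and length trend removed and to −0.07 with weighted libraries. The ratio of H2afz to H2afv TPM was 14.9, 11.2 and 11.6 with the empty vector and 8.87, 7.44 and 7.82 with TPR-FGFR1, with no overlap. A ratio within a library is free of any scaling by the library total.

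H2afx (ENSMUSG00000049932, chromosome 9) encodes H2A.X, the variant phosphorylated beside DNA breaks, and its RNA can end either at a stem-loop or in a poly(A) tail. Its values were 11.2, 11.2 and 10.9 TPM with the empty vector and 3.38, 3.93 and 4.89 TPM with TPR-FGFR1. The empty vector values lay within 1 TPM of each other and far above the rest. The log2 difference of H2afx was −1.27 (SE 0.127), the largest of the replacement genes. It is also the member with the highest GC content among those fitted (62.3%), and with the GC and length trend removed the difference was −0.72 (SE 0.138). H2afx was the only replacement gene that had a stem-loop by the search above.

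Of the remaining H2A replacement genes, H2afy (ENSMUSG00000015937) encodes macroH2A1, a variant with a large extra domain that is linked to silent chromatin. It was at 114, 130 and 131 TPM against 101, 93.6 and 117 TPM, overlapping through TPR-FGFR1 replicate 3. Its log2 difference was −0.27 (SE 0.107). H2afj (ENSMUSG00000060032), which encodes H2A.J, was at 5.97, 4.59 and 4.95 TPM against 3.93, 2.65 and 4.15 TPM. Its groups did not overlap, and its log2 difference was −0.44 (SE 0.169), or −0.23 with the GC and length trend removed. Neither gene passed the threshold of the fit over all genes. Under the alternative settings each passed in 2, of 17 for H2afy and 16 for H2afj.

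The H3.3 genes, H3f3a (ENSMUSG00000060743, chromosome 1) and H3f3b (ENSMUSG00000016559, chromosome 11), encode the same protein, the H3 variant put into chromatin outside replication. H3f3b stood at 524, 470 and 475 TPM with the empty vector and at 307, 314 and 307 TPM with TPR-FGFR1. All TPR-FGFR1 libraries were lower and close together, and the log2 difference of H3f3b was −0.66 (SE 0.0759). H3f3a stood at 297, 353 and 370 TPM with the empty vector and at 432, 409 and 353 TPM with TPR-FGFR1. Its ranges overlapped, since TPR-FGFR1 replicate 3 was as low as the middle empty vector library. The log2 difference of H3f3a was 0.23 (SE 0.118), or 0.09 with the GC and length trend removed.

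The ratio of H3f3a to H3f3b TPM was 0.566, 0.751 and 0.780 with the empty vector and 1.41, 1.30 and 1.15 with TPR-FGFR1. H3f3b was thus the more abundant of the pair in each empty vector library, and H3f3a in each TPR-FGFR1 library. Their summed level differed less, from 829 ± 13.2 TPM to 708 ± 42.2 TPM (SD, n = 3), a 1.17-fold difference without overlap. The genes had nearly the same GC content in their transcripts (43.2% for H3f3a and 43.4% for H3f3b) but not upstream. Their upstream bases are shown because the pair encodes 1 protein from unlike promoters, H3f3a at chr1:180813606-180813855 and H3f3b at chr11:116024505-116024754, both on the minus strand, with the same motifs in capitals:
H3f3a: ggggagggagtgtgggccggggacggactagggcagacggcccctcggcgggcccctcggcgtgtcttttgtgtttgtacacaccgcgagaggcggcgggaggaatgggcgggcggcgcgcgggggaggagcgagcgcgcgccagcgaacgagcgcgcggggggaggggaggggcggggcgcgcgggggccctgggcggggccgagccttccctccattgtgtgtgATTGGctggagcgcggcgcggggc
H3f3b: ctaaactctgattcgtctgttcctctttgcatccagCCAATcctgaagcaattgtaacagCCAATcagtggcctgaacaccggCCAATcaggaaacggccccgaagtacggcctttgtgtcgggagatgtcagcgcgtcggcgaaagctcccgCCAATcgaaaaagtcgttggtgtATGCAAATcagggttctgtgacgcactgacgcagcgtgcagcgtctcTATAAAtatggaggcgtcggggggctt

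H3f3b held 4 CCAAT boxes, 1 octamer and 1 TATAAA in 250 bases with a GC content of 54.0%, and H3f3a held 1 CCAAT box in 250 bases of 77.2% GC. Of the 8 replacement promoters matched, H3f3b was the only one with the octamer or with TATAAA.

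**Figure D4:**
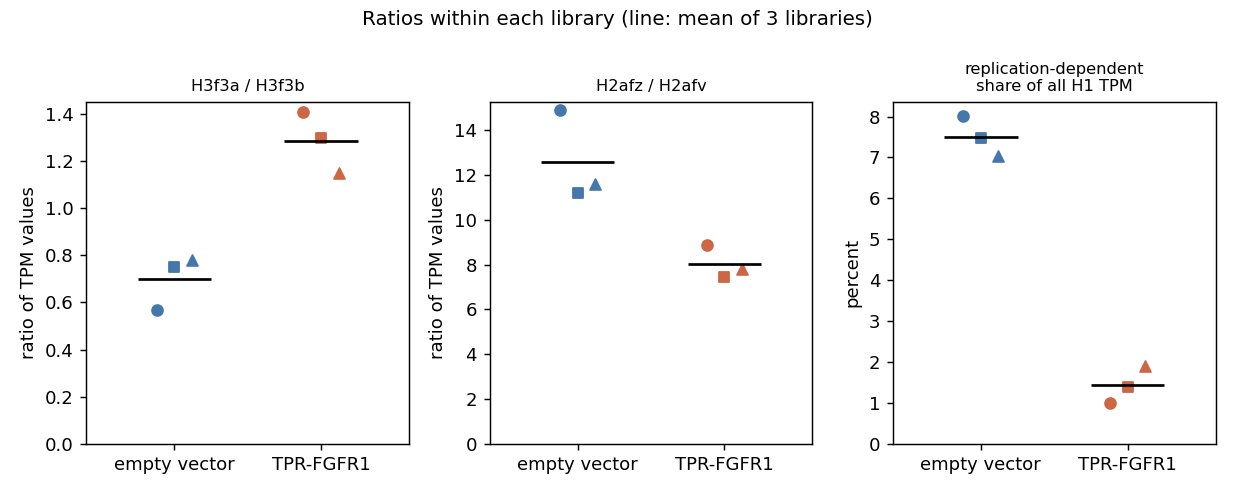
Ratios of TPM within each library: H3f3a over H3f3b, H2afz over H2afv, and the percent of H1 TPM that came from replication-dependent genes. Points are libraries and lines are means of 3 libraries; the groups do not overlap in any panel, and the H3f3a to H3f3b ratio lies below 1 with the empty vector and above 1 with TPR-FGFR1.

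H1f0 (ENSMUSG00000096210, chromosome 15) encodes H1.0, a linker histone known to accumulate in cells that stop dividing. It stood at 219, 216 and 217 TPM with the empty vector and at 154, 155 and 166 TPM with TPR-FGFR1. The groups were far apart for their spread, at 217 ± 1.77 and 159 ± 6.77 TPM (SD, n = 3), and the log2 difference was −0.45 (SE 0.0685). H1fx (ENSMUSG00000044927), the gene of linker variant H1.10, was listed at 0 in every library. That value may be a failed estimate and does not show that H1fx was silent. Of the 8 replacement genes fitted, 5 were lower without overlap and 4 passed the threshold (H2afz, H2afx, H3f3b and H1f0), beside 20.8% and 10.0% of all tested genes lower by the same rules. By limma 0 of the 8 were higher at the adjusted threshold (10.2% of all tested genes) or at an unadjusted p under 0.05 (2558 of all 12862 tested genes). Without overlap 0 of the 8 were higher (22.6% of all tested genes). Their median log2 difference was −0.45 (−0.30 with the GC and length trend removed), against 0.02 for all tested genes. Without TPR-FGFR1 replicate 3, 6 were lower and 1 (H3f3a) was higher at the threshold. Of all 12864 genes then tested, 3009 were lower and 3387 higher. Without any single empty vector library, or without TPR-FGFR1 replicate 1, 2 of the 8 passed, and 220 to 406 of all tested genes did.

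In the order of levels with the empty vector, H2afz, H3f3b, H3f3a, H1f0, H2afy, H2afv, H2afx and H2afj followed each other, and no neighbours in that order overlapped in TPM. With TPR-FGFR1, H2afz and H3f3a overlapped (418 to 447 and 353 to 432 TPM) and H3f3b took the third place, while H2afx and H2afj overlapped as well. Of summed replacement TPM, H3f3a held 18.2 ± 2.49% with the empty vector and 27.2 ± 2.60% with TPR-FGFR1, and H3f3b 26.1 ± 0.834% and 21.1 ± 0.465% (SD, n = 3).

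**Figure D5:**
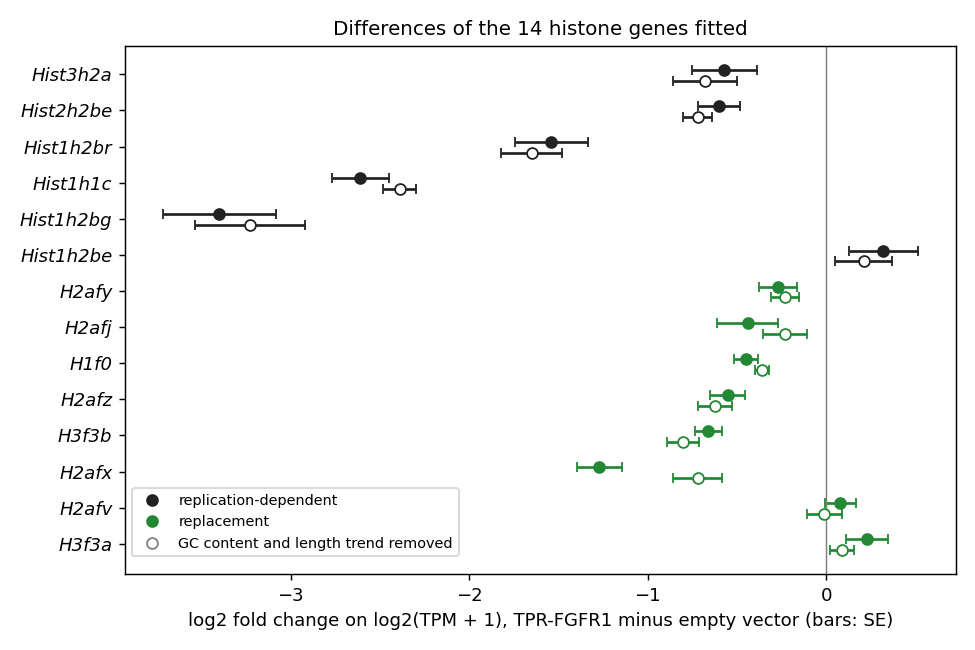
Log2 difference, TPR-FGFR1 minus empty vector on the log2(TPM + 1) scale, of the 14 histone genes that averaged 1 TPM or more; bars are SE from limma. Filled symbols are the values as fitted and open symbols those with the GC content and length trend removed; the largest shift is that of H2afx, from −1.27 to −0.72, while Hist1h2bg and Hist1h1c stay below −2.

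Genes that act on histone mRNA, none of them a member, were read from a list of 19, all of which were tested. By limma with Benjamini-Hochberg adjustment over all tested genes, 3 rose and 3 fell, beside 10.2% higher and 10.0% lower of all tested genes, and the median log2 difference was −0.03. Slbp, which binds the stem-loop, was at 119, 121 and 124 TPM with the empty vector and 124, 125 and 97.6 TPM with TPR-FGFR1. It overlapped between the groups (log2 difference −0.08, SE 0.108, limma adjusted p = 0.599). The Slbp difference turned to 0.03 without TPR-FGFR1 replicate 3, and with the GC and length trend removed it was −0.21 and passed the threshold as lower (limma adjusted p = 0.0212). Npat, the coactivator of histone gene transcription, was at 20.4 ± 0.458 and 22.8 ± 2.61 TPM (SD, n = 3), with a log2 difference of 0.14 (limma adjusted p = 0.318) that turned to −0.05 with the GC and length trend removed. Eri1, the exonuclease that trims the stem-loop end and takes part in histone mRNA decay, rose. It went from 80.7, 84.3 and 86.2 TPM to 144, 145 and 109 TPM, a log2 difference of 0.65 (SE 0.121, limma adjusted p = 0.0171). The ratio of Eri1 to Slbp TPM was 0.677, 0.695 and 0.696 with the empty vector and 1.17, 1.16 and 1.12 with TPR-FGFR1, so it stood apart in replicate 3 as well, the TPR-FGFR1 library in which both genes were lowest.

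Srrt, known as ARS2, which joins the nuclear cap-binding complex and is needed for histone mRNA processing, fell from 164 ± 1.10 to 91.2 ± 16.4 TPM (SD, n = 3), a log2 difference of −0.85 (SE 0.125, limma adjusted p = 0.0104). The subunits of that complex moved in opposite directions. Ncbp2 fell, with a log2 difference of −0.49 (SE 0.0788, limma adjusted p = 0.0122), and Ncbp1 rose, with a log2 difference of 0.36 (SE 0.0828, limma adjusted p = 0.0278). Pou2f1 and Upf1 were the other genes called; they were named for completing the 6, after their values were seen. Pou2f1 rose by a log2 difference of 0.52 (limma adjusted p = 0.0409), which was 0.33 and did not pass with the GC and length trend removed (limma adjusted p = 0.162). Upf1, a helicase of histone mRNA decay, fell by 0.70 on the log2 scale (limma adjusted p = 0.0290), with a log2 difference of −0.34 when that trend was removed. These calls were sensitive to single libraries: leaving out any 1 library other than TPR-FGFR1 replicate 3 left 0 or 1 of the list higher and 0 to 2 lower.

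Of 27 histone chaperones, importers and exchange factors, all tested, 3 rose and 4 fell, beside 10.2% higher and 10.0% lower of all tested genes, with a median log2 difference of −0.07 against 0.02 for all tested genes. The rises were Ubn2 (0.53, limma adjusted p = 0.0184), a subunit of the HIRA complex that deposits H3.3, Atrx (0.50, limma adjusted p = 0.0203), which deposits H3.3 together with DAXX, and Nap1l1 (0.52, limma adjusted p = 0.0261), a carrier of H2A and H2B. With the GC and length trend removed these log2 differences were 0.33 for Ubn2, 0.29 for Atrx and 0.34 for Nap1l1. Cabin1, a further HIRA complex subunit, fell by 0.51 on the log2 scale (limma adjusted p = 0.0265), with a log2 difference of −0.23 when that trend was removed. Hira itself was at 28.9, 33.2 and 27.3 TPM against 34.8, 34.2 and 42.8 TPM and did not pass the threshold (log2 difference 0.31, limma adjusted p = 0.103). With the GC and length trend removed the Hira difference was 0.48 and passed (limma adjusted p = 0.00733). Without any 1 library other than TPR-FGFR1 replicate 3, 0 of the chaperones were called in either direction, and without that replicate 7 were higher and 9 lower. Of all 12864 genes tested without that replicate, 3387 were higher and 3009 lower.

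Of 22 genes whose mRNA is high at the G1/S boundary and in S phase, when replication-dependent histone genes are transcribed, 11 fell and 0 rose by limma at the adjusted threshold, beside 10.0% lower and 10.2% higher of all tested genes. The median log2 difference was −0.24, against 0.02 for all tested genes. At an unadjusted p under 0.05 by limma the counts were 12 lower and 0 higher, beside 2477 lower and 2558 higher of all 12862 tested genes. Gins1, a subunit of the replication helicase, was at 17.0, 15.9 and 17.8 TPM with the empty vector and 10.5, 10.3 and 9.80 TPM with TPR-FGFR1, a log2 difference of −0.68 (SE 0.083, limma adjusted p = 0.00746). E2f2, a transcription factor of the G1/S switch, was at 23.1, 25.2 and 24.3 TPM against 13.3, 11.2 and 14.4 TPM, a log2 difference of −0.86 (SE 0.105, limma adjusted p = 0.00746), or −0.56 with the GC and length trend removed. Tyms (−0.75, limma adjusted p = 0.0179) and Rrm2 (−0.45, limma adjusted p = 0.0181), enzymes of nucleotide supply, fell as well. Without any 1 library other than TPR-FGFR1 replicate 3, only 2 or 3 of the 22 passed, and without that replicate 12 did. Over all tested genes 220 to 869 passed in the former fits. Without TPR-FGFR1 replicate 3, 3009 of 12864 genes were lower and 3387 higher. Cell cycle phase was not measured, and its part in the histone values was not tested.

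Other RNAs without a poly(A) tail were read for comparison. Their sums are TPM levels of annotated genes and do not measure how much RNA without a tail entered each library. Annotated small nucleolar RNA genes summed to 139, 582 and 222 TPM with the empty vector and 121, 22.2 and 38.8 TPM with TPR-FGFR1, lower without overlap but spread widely within each group. Those sums rested on few genes above 0, numbering 4, 14 and 9 against 6, 2 and 2, and these numbers overlapped. Small nuclear RNA genes summed to 15.2, 37.3 and 66.9 TPM against 23.9, 23.1 and 13.3 TPM and overlapped, as did small Cajal body RNA genes (52.0, 34.8 and 32.5 against 37.8, 44.8 and 31.4 TPM). The Y RNA genes Rny1 and Rny3 were listed at 0 throughout. Rmrp and Rpph1, the RNAs of the RNase MRP and RNase P particles, were above 0 in empty vector libraries alone, where the list with the Y RNAs summed to 7.04, 0 and 1.83 TPM, against 0 in each TPR-FGFR1 library. The part of carried-over RNA in the histone values was not tested.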

How the data were processed

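RNA from 6 libraries of Ba/F3 cells, 3 per group, was sequenced from 1 µg of total RNA after an Illumina stranded mRNA preparation, per the labels' protocols, as pairs of 150-base reads. The authors deposited TPM values for 57010 Ensembl gene IDs; the column sums are equal within rounding. The build GRCm39 and the tools StringTie, HISAT2 and fastp are named per the submitters' processing notes. For their versions, the annotation release, the strand setting and the treatment of reads with several matches, nothing was found in the sources used here. Depth is unknown from TPM, and no counting interval is given. Columns were matched to samples by name, and 0 columns of other samples were present.

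The members and gene lists were chosen with earlier results of these data known. Named by value were the most abundant gene of each histone family, the 6 replication-dependent genes of largest difference, all replacement genes, and from 3 lists (histone mRNA factors, chaperones, S phase genes) up to 4 genes of smallest adjusted p plus Slbp and Npat. Hist1h1b, Hist1h4k, Hist4h4, Hist1h2ae, Hist1h2bk, Hist1h2ah, Hist1h2ba, Hist1h2aa, Hira, Pou2f1, Upf1, Epor and Lyz2 are named outside that rule.

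Values were analysed as log2(TPM + 1) for genes averaging 1 TPM or more, with limma 3.58.1 in R 4.3.3 (lmFit, eBayes with trend, group as the only term, Benjamini-Hochberg over 12862 genes, called under 0.05), tested on simulated data. The pseudocount of 1 understates differences of low genes. The GC and length trend was removed from each library by splines with 4 degrees of freedom. Sums and ratios were computed with pandas 2.3.3 in Python 3.11.15. Symbols, transcripts, stem-loops and chromosomes came from GENCODE M21 (GRCm38), matched by gene ID, and upstream bases from RefSeq (GRCm38.p6), so both differ from the authors' build, and the deposited table holds no coordinates. Alternatives were a filter of 5 TPM or none, pseudocounts of 0.1 and 5, quantile normalization, median centring, rescaling without mitochondrial genes, library weights, the replicate number as a block, GC and length correction, protein-coding genes alone, and each library left out.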

Additional observations from a re-analysis of the deposited data

How the results depend on the processing

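The count of all called genes (2600) became 1146 without a filter, 9281 with library weights (which did not converge), 3986 after GC and length correction, and 220 to 6396 with 1 library left out, the highest without TPR-FGFR1 replicate 3. Replication-dependent genes called lower (4) numbered 2 to 4 with 1 library left out, 2 without empty vector replicate 2. Without a filter they numbered 9 of 41 fitted, beside 526 of all 26204 genes, in a fit that takes in members under 1 TPM. Replacement genes called lower (4) numbered 2 to 6 with 1 library left out. Library weights called 1 gene of each class higher, and 0 to 1 replacement genes were called higher with 1 library left out. The replication-dependent median (−1.07) was −2.06 and −0.44 with pseudocounts of 0.1 and 5, −0.30 without a filter, −2.61 with a filter of 5 TPM and −0.59 without mitochondrial genes, where 13124 genes were tested. The replacement median (−0.45) was −0.30 after GC and length correction. The log2 ratio of the replacement sum (−0.36) was −0.33 without mitochondrial genes and −0.38 to −0.33 with 1 library left out, and that of the replication-dependent sum (−2.17) ran from −2.28 to −2.01. Signs turned for H2afv (−0.07 with library weights, −0.01 after GC and length correction), Slbp (0.02 with library weights, and −0.14 to 0.03 with 1 library left out) and Npat (−0.05 after GC and length correction). The cause of these shifts was not tested.

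The replicate numbers did not pair the samples. Deviations from the group means correlated at −0.193, −0.075 and −0.153 between libraries of the same number, and no label ties them. With the replicate number as a block, 764 genes and 2 replacement genes (lower) were called. Low TPM limits most replication-dependent values: 64 of the 70 genes had a mean under 1 TPM, where a value of 0 may be few reads or a failed estimate.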
